A study of Mus musculus with 8 samples.

Results

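Heat shock and endoplasmic reticulum (ER) chaperone genes were examined as RNA targets of DDX5, a DEAD-box RNA helicase, in intestinal epithelial cells (IECs). The group held 10 genes. Hsp90aa1, Hsp90ab1 and Hspa8 encode chaperones of the cytosol, Hsp90b1, Hspa5, Calr, Canx, Pdia3 and P4hb encode chaperones or folding enzymes of the ER, and Hspd1 encodes the chaperonin of the mitochondrion. Every peak that overlapped one of these genes on its strand by at least 1 base (GENCODE M21, GRCm38) was taken, whatever its enrichment. This gave 35 of the 1278 peaks listed for the small intestine, 84 of the 16455 for colon mAb and 70 of the 9146 for colon rAb. The lists together touched 6582 annotated genes.

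The lists came from eCLIPseq of C57BL/6 mice labelled wild type, in which RNA cross-linked to DDX5 was immunoprecipitated (IP) and sequenced beside a size-matched input. For the small intestine, epithelium of female mice aged 8 weeks gave 2 CLIP and 2 input libraries, which the authors merged into 1 list by the Irreproducible Discovery Rate procedure. For the colon, each of the names mAb and rAb stood for 1 CLIP library and its input, and all CLIP labels carried the same antibody catalogue number. The growth protocol of the colon samples named 120-day-old Apc fl/+ CDX2Cre mice, at odds with the wild-type genotype label, and the names of both colon lists mark them as merged from replicates 1 and 2. Each group had 1 list, so no value had a spread between replicates and no p-value was computed between lists. Tissue, stated age, library protocol (paired-end in the small intestine, single-end in the colon) and peak selection changed together and cannot be told apart. The same would hold for genotype if the colon mice were those named in the growth protocol. Of 9 epithelial marker genes, 5 had a site in the small intestine, 8 a peak in the mAb list and 7 a peak in rAb. Of 6 markers of small intestine enterocytes, 4 had a site in the small intestine and none had a peak in either colon list. Of 4 markers of colon epithelium, all 4 had peaks in mAb (42 peaks, 35 of them on 1 gene). In rAb 1 had peaks (12 peaks), and none had a site in the small intestine. Of 5 stromal markers, 4 had peaks in mAb and 3 had peaks in rAb (62 and 55 peaks, with 34 and 29 on the top gene). Of 5 leukocyte markers, 2 had peaks in each colon list (13 and 12 peaks, with 9 and 7 on the top gene). Neither the stromal nor the leukocyte markers had a site in the small intestine. Their part in the results on the chaperone genes was not tested.

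Heat shock proteins of the HSP90 and HSP70 families bind unfolded or partly folded proteins and release them in cycles driven by ATP. In the ER, glycoproteins pass through the lectin chaperones calnexin (Canx) and calreticulin (Calr), while protein disulfide isomerases such as Pdia3 and P4hb form and rearrange disulfide bonds. Secretory and absorptive cells of the intestinal epithelium depend on this machinery, and the genes of its ER part rise together in the unfolded protein response.

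A peak was called a site when both its −log10 p and its log2 fold of IP over input were above 3, the cutoff of the study. The small intestine list held only sites, and 9 of the 10 genes had at least 1. All 6 ER genes had sites, 23 in total, and all 3 cytosolic genes had sites, 12 in total, while Hspd1 had none. In the colon the same genes had many called peaks and no site: 0 of 84 in the mAb list, where 1.22% of all called peaks were sites, and 0 of 70 in the rAb list, where 1.99% were. A count of 0 allows a share of up to 3.57% for mAb and 4.29% for rAb (3 counts of the total), limits that lie above the share of each whole list. These limits treat the peaks as independent, which peaks of 1 gene are not, so they may be too low.

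The small intestine sites shared a feature that the choice of genes did not use, which is best seen in their sequences. Of the 35 sites, 26 lay in coding sequence, and most of these were richer in purines (A or G) than the whole coding sequence of their gene. The bound strand of sites that show it is printed 5′ to 3′ from GRCm38, with runs of at least 6 purines in capitals. The comparison was chosen after these sequences had been seen.
Hsp90aa1, exon 5, chr12:110694254-110694315, minus strand: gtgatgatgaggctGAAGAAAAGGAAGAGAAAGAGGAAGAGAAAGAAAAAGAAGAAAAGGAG
Hsp90b1, exon 7, chr10:86698323-86698439, minus strand: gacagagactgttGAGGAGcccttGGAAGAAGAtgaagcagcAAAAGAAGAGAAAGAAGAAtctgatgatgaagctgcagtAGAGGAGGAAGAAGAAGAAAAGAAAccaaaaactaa
Hsp90b1, exon 17, chr10:86691695-86691752, minus strand: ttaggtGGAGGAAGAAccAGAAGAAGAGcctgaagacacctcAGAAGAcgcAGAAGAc
Hsp90b1, end of exon 17 and start of the next intron, chr10:86691606-86691694, minus strand: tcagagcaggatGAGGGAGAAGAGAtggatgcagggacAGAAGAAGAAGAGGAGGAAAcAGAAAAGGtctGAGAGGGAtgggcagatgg
Calr, exon 9, chr8:84842751-84842828, minus strand: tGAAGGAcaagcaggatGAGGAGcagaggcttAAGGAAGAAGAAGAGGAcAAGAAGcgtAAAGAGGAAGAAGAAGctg
Canx, exon 13, chr11:50297273-50297377, minus strand: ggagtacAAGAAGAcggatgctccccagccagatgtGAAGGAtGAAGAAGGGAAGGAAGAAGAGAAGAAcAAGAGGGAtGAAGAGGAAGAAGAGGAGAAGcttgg
P4hb, exon 11, chr11:120561220-120561261, minus strand: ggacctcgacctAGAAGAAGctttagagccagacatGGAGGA

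The 26 coding sites had a median purine content of 67.7% (range, 49.2% to 92.3%), against 57.4% over the whole coding sequence of the 7 genes that held them. Content was taken over all bases of a site, and some sites included untranslated or intron bases (34 of 52 in the Hspa5 site at chr2:34776096-34776147). The highest value was of a site of 13 bases. Across all 406 coding sites of the small intestine list the median was 58.3%, against 54.5% over the whole coding sequence of their genes. Purines made up more than 70% of the bases in 12 of the 26 sites (46.2%), against 21.2% of all coding sites. Of the 26 sites, 23 had a higher purine content than the coding sequence of their own gene, and the exceptions were 2 of the 8 sites of Hsp90b1 and 1 of the 4 sites of Hspa5. Hsp90aa1 had the highest median over its sites, 84.6%, against 58.5% over its coding sequence. Hspa5 had the lowest, 59.8%, against 56.1%. In the called colon peaks of the same genes, the median was 57.9% in mAb coding peaks and 56.0% in rAb coding peaks, beside 56.6% and 56.9% over the coding sequence of the genes that held them and 54.5% over all coding peaks of either list. Peaks with more than 70% purines made up 18.8% of the mAb coding peaks of the chaperone genes, against 8.17% of all, and 13.5% of those of rAb, against 8.52%. Sites of 1 gene often adjoined each other, so these values rest on 7 genes and not on 26 independent sites.

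**Figure D1:**
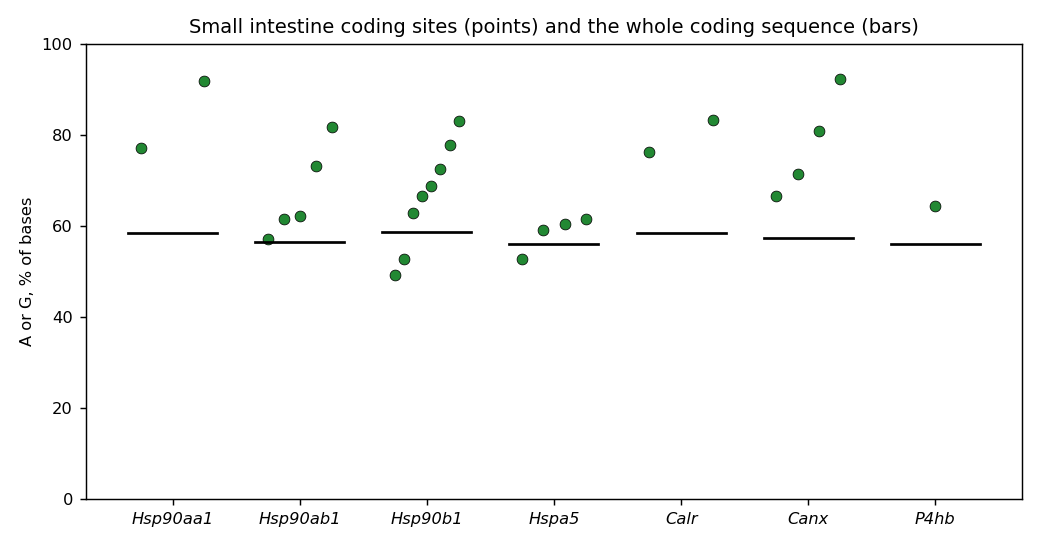
Purine content (A or G, in % of bases) of each small intestine site in coding sequence (points) and of the whole coding sequence (black bars), by gene. Of the 26 sites, 23 lie above the bar of their gene, and the highest value is a Canx site of 13 bases at 92.3%.

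Many sites of the ER genes also lay late in the coding sequence. Position was taken at the midpoint of the coding bases inside each site. The median coding site of the chaperone genes lay 76.1% of the way from the start to the end of the coding sequence, against 45.2% over the 396 coding sites of the small intestine that could be placed on a main transcript. The median was 89.7% (range, 2.39% to 99.6%) for the 19 coding sites of the ER genes, with early sites in Hsp90b1 and Hspa5. It was 39.0% (32.8% to 75.1%) for the 7 of the cytosolic genes, all in Hsp90aa1 and Hsp90ab1. Adjoining sites were counted separately in these medians. The last 10% of the coding sequence held 9 of the 26 sites (34.6%), against 11.6% of all. The 9 sites belonged to Hsp90b1, Hspa5, Calr, Canx and P4hb, all of the ER, and came to 5 stretches when adjoining sites were joined. In the colon this stretch held 7 of the 69 mAb coding peaks of the chaperone genes (10.1%, against 9.02% over all) and 8 of the 52 from rAb (15.4%, against 9.11%).

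**Figure D2:**
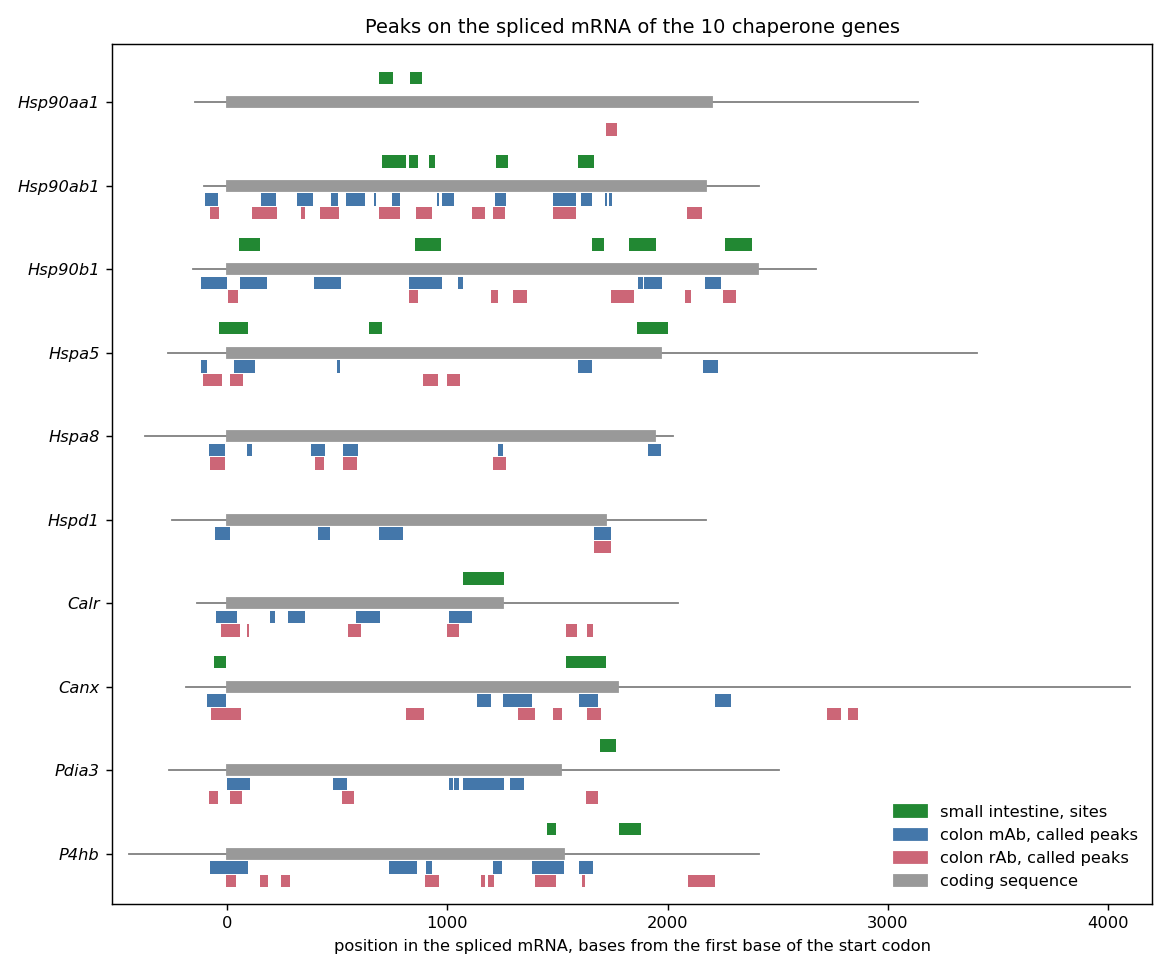
Peaks along the spliced main transcript of each gene, in bases from the start codon, with the coding sequence as a grey bar and the untranslated regions as a grey line. Small intestine sites (green) are above each transcript, called peaks of the colon mAb (blue) and rAb (red) lists are under it, and peaks in introns are not drawn. Green blocks lie in the last 10% of the coding sequence in Hsp90b1, Hspa5, Calr, Canx and P4hb, while colon peaks are spread along the transcripts.

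By region, coding sequence held 26 of the 35 small intestine sites of the chaperone genes (74.3%, exact 95% interval 56.7 to 87.5), against 31.8% over all 1278 sites. The intervals of shares are Clopper-Pearson and cover counting error only. The 3′ UTR held 3, exons of non-coding transcripts 3, the 5′ UTR 2 and a proximal intron 1. In the colon, coding sequence held 69 of 84 called peaks in the mAb list (82.1%, 72.3 to 89.6), against 49.9% over the list, and 52 of 70 in the rAb list (74.3%, 62.4 to 84.0), against 55.6%. The coding sequence made up from 41.5% (Canx) to 86.3% (Hsp90ab1) of the spliced main transcript of these genes.

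Hsp90aa1 (ENSMUSG00000021270.13, minus strand of chromosome 12) encodes the stress-inducible HSP90 of the cytosol and had the highest log2 folds of the group. It had 4 small intestine sites, as did Hspa5. The exon 5 site printed above had a log2 fold of 5.54 with a −log10 p of 10.1. The second coding site, chr12:110694121-110694177, had a log2 fold of 5.62 with a −log10 p of 25.3. The other 2 lay in intron 1 of the main transcript, chr12:110695883-110695947 on the 5′ UTR of another transcript (log2 fold 4.72, −log10 p 16.3) and chr12:110695967-110696018 in intron sequence (5.17 and 11.1). Both coding sites also matched 2 or 3 other places on the assembled chromosomes at 95% identity or more over at least 90% of their length, so reads could have come from copies of this sequence. In the colon the gene was almost empty. The mAb list had no peak on it, and the rAb list had 2, each of 3 IP reads over 3 input reads (log2 fold 1.65, exact 95% interval -1.25 to 4.55), at other positions than the sites. In these bulk samples, fewer cells of a type and less RNA per cell cannot be told apart.

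Hsp90ab1 (ENSMUSG00000023944.14, minus strand of chromosome 17), the constitutive HSP90 of the cytosol, had 5 sites in the small intestine, all coding. Exon 6 held sites at chr17:45570346-45570390 (log2 fold 4.11, −log10 p 10.9) and chr17:45570273-45570298 (3.76 and 6.44). A further pair lay in exon 7, chr17:45569507-45569562 (3.35 and 9.33), and exon 9, chr17:45568923-45568993 (3.83 and 9.31). This gene had the most called peaks of the group in the mAb list, 16, of which 14 had a log2 fold below 0. Its 11 rAb peaks had a median log2 fold of -0.10.

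The colon peak of Hsp90ab1 that stood out lay between the sites of exon 9 and exon 7. In the mAb list chr17:45569004-45569110 in exon 9 had 78 IP reads over 56 input reads, a log2 fold of 1.04 (exact 95% interval 0.53 to 1.56) with a −log10 p of 4.43. In the rAb list chr17:45569004-45569108 had 55 IP reads over 65 input reads, a log2 fold of 1.41 (0.87 to 1.95) with a −log10 p of 7.31. It had the most IP reads of any traced peak of the 10 genes in both colon lists, and no small intestine site overlapped it. Its bound strand is shown beside the sites. Purines made up 56.1% of it, near the 56.4% of the whole coding sequence of the gene and the 57.1% of its exon 7 site. The only run of at least 6, again in capitals, was near its end.
Hsp90ab1, exon 9, colon peak of the mAb list: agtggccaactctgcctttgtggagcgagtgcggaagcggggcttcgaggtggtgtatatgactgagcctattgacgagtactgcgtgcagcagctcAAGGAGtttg

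Hsp90b1 (ENSMUSG00000020048.13, minus strand of chromosome 10), the HSP90 of the ER also known as GRP94, had 8 small intestine sites, the most of the 10 genes, and ranked 18 of 491 genes by number of sites. All were coding, with log2 folds from 3.42 to 4.70. The exon 7 site had a log2 fold of 4.16 with a −log10 p of 43.5. The adjoining sites at the end of exon 17 had log2 folds of 3.78 and 4.49 and −log10 p values of 9.46 and 28.7. Adjoining sites in exon 2, near the start of the coding sequence, lay at chr10:86704314-86704390 (3.47 and 13.9) and chr10:86704290-86704313 (3.42 and 3.05, just past the cutoff). Exon 13 held chr10:86694093-86694147 (4.33 and 10.4) and chr10:86693916-86693977 (4.36 and 14.9), and exon 14 held chr10:86693455-86693513 (4.70 and 8.99). In the mAb list its 12 peaks had a median log2 fold of -0.01, and in the rAb list its 11 peaks had a median of 0.43. Of these, 2 mAb and 3 rAb peaks also touched Gm15344 or Gm25745, annotated on the same strand.

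Some sites of the 3 HSP90 genes fell on matching parts of their coding sequences: 7 of their 15 coding sites shared at least 1 aligned base with a site of another HSP90 gene (2 of 2 in Hsp90aa1, 3 of 5 in Hsp90ab1 and 2 of 8 in Hsp90b1). A global alignment gave 76.6% identity between Hsp90aa1 and Hsp90ab1, and 62.6% and 62.5% between each of these and Hsp90b1. The Hsp90aa1 exon 5 site that is printed above shared 50 aligned bases with the Hsp90b1 exon 7 site. The second Hsp90aa1 coding site shared 35 aligned bases with the Hsp90ab1 site at chr17:45570346-45570390. The smallest overlap was 3 aligned bases, between the Hsp90ab1 exon 9 site and the Hsp90b1 site at chr10:86693916-86693977. Neither of these shared bases with any other HSP90 site. How many sites would share bases through the density of sites was not tested. Gaps in repetitive sequence can be placed in several ways, so these counts of bases are approximate.

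Hspa5 (ENSMUSG00000026864.13, plus strand of chromosome 2) encodes BiP, the HSP70 of the ER and a sensor of unfolded protein. It had 4 coding sites in the small intestine. At the end of the coding sequence, chr2:34776005-34776095 had a log2 fold of 4.73 with a −log10 p of 32.9, and the adjoining chr2:34776096-34776147, which crossed the stop codon, had 5.15 and 13.7. A site over the start codon, chr2:34772284-34772415, had 3.19 and 20.8, and exon 6 held chr2:34774066-34774122 (3.45 and 10.4). The first of these is shown as the Hspa5 site with the highest −log10 p.
Hspa5, exon 9, chr2:34776005-34776095, plus strand: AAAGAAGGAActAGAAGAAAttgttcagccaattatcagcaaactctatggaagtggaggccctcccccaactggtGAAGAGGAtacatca
The pair of sites at the end met no called colon peak. At the start codon the mAb list had an overlapping peak with a log2 fold of -0.98. The rAb list had 2 peaks there that went opposite ways, a log2 fold of -0.72 over 62 shared bases and one of 2.07 over 17 shared bases, the latter from 8 IP reads over 6 input reads (exact 95% interval 0.35 to 3.88).

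Hspa8 (ENSMUSG00000015656.17, plus strand of chromosome 9), the constitutive HSP70 of the cytosol, differed from the other genes in where its sites lay. It had 3 small intestine sites and none of them touched an exon of its main transcript. Of these, 2 lay on small nucleolar RNAs (snoRNAs) that are encoded in its introns and guide chemical modification of ribosomal RNA. The site on Snord14e, chr9:40804801-40804840, had a log2 fold of 3.60 with a −log10 p of 36.6, with 37 of its 40 bases inside the 90-base snoRNA. The site on Snord14c, chr9:40803638-40803672, had a log2 fold of 4.24 with a −log10 p of 11.5, with 31 of its 35 bases inside the 86-base snoRNA. Both covered the 3′ end of their snoRNA and shared a run of 19 bases, in capitals.
Snord14e, chr9:40804801-40804840, plus strand: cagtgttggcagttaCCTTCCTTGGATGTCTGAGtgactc
Snord14c, chr9:40803638-40803672, plus strand: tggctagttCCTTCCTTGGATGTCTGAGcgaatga
The Snord14c site also matched 1 other place in the genome. The remaining site, chr9:40801376-40801446 (log2 fold 3.96, −log10 p 15.1), lay in intron 1 of the main transcript, on an exon of a non-coding transcript of the gene.

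The snoRNAs were also where the colon peaks of Hspa8 were highest. Both colon lists called chr9:40804747-40804839 on Snord14e, with 29 IP reads over 21 input reads in the mAb list (log2 fold 1.03, exact 95% interval 0.17 to 1.91, −log10 p 1.78) and 19 over 19 in the rAb list (1.65, 0.66 to 2.65, −log10 p 3.40). Beside the Hsp90ab1 peak in exon 9, this was the only colon peak of the 10 genes with a −log10 p above 3. That made 1 of 84 peaks in the mAb list, where 2.79% of all called peaks passed, and 2 of 70 in the rAb list, where 4.91% did. The snoRNA peaks do not measure the Hspa8 mRNA. Its 7 mAb and 5 rAb coding peaks had log2 folds under 1, and 10 of the mAb peaks and 7 of the rAb peaks of the gene had another match in the genome.

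Calr (ENSMUSG00000003814.8, minus strand of chromosome 8) encodes calreticulin, a soluble lectin chaperone that also stores calcium. It had 2 small intestine sites. The one printed above had a log2 fold of 4.24 with a −log10 p of 37.8. The mAb list had a called peak over part of it, chr8:84842788-84842845, with 25 IP reads over 35 input reads, a log2 fold of 0.08 (exact 95% interval -0.72 to 0.86). The rAb list had none there. This was the Calr peak with the most traced reads in that list, and its IP and input did not differ beyond counting error.

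Canx (ENSMUSG00000020368.15, minus strand of chromosome 11), the membrane-bound partner of calreticulin, had 5 small intestine sites. The exon 13 site had a log2 fold of 4.16 with a −log10 p of 37.0. Exon 14 held adjoining sites at chr11:50297058-50297113 (4.53 and 14.1), chr11:50297114-50297125 (4.23 and 10.8) and chr11:50297126-50297138 (3.90 and 8.02). The last site lay in the 5′ UTR of exon 1, chr11:50325489-50325550 (3.12 and 21.9). All 5 overlapped a called peak of both colon lists, the only gene of the group with sites for which that held, and the colon log2 folds there ran from -0.66 to 0.12 for mAb and from 0.33 to 0.65 for rAb.

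The disulfide isomerases had few coding sites. Pdia3 (ENSMUSG00000027248.13, plus strand of chromosome 2), which acts on glycoproteins held by calnexin and calreticulin, had 1 site, in the 3′ UTR at chr2:121437873-121437946 (log2 fold 4.40, −log10 p 10.2). P4hb (ENSMUSG00000025130.11, minus strand of chromosome 11), the classical protein disulfide isomerase, had adjoining 3′ UTR sites at chr11:120560835-120560893 (4.90 and 18.4) and chr11:120560894-120560931 (4.87 and 22.7). Its coding site in exon 11 was close to the cutoff in log2 fold (3.16, −log10 p 13.1). The 3′ UTR sites of both genes met no called colon peak. In coding sequence, the median log2 fold was -1.02 over 7 Pdia3 peaks and -1.17 over 7 P4hb peaks of the mAb list. In the rAb list it was -1.02 over 2 Pdia3 peaks and 0.24 over 8 P4hb peaks.

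Hspd1 (ENSMUSG00000025980.14, minus strand of chromosome 1) encodes HSP60, which folds proteins in the mitochondrial matrix with its partner Hspe1. It was the only gene of the group without a small intestine site. In the mAb list it had 9 peaks, and the most reads were 10 IP over 4 input at chr1:55081730-55081832 in exon 7 (log2 fold 1.89, exact 95% interval 0.09 to 4.01). Its highest log2 fold there, 2.15, came from adjoining intervals of 1 and 7 bases with 3 IP reads over 1 input read. In the rAb list it had 2 peaks. The first, chr1:55078268-55078342 in exon 12, had the highest log2 fold of the group in the colon, 3.98, from 5 IP reads over 1 input read, and its −log10 p of 2.41 was short of the cutoff (exact 95% interval of the fold 0.82 to 9.54). The mAb peak at the same place had 5 IP reads over 6 input reads and a log2 fold of 0.30 (-1.75 to 2.28), so the intervals overlapped. The second rAb peak, in intron 1, had 3 IP reads over 1 input read (log2 fold 3.24). Inputs of 1 read may in truth be 0, because a pseudocount looks the same.

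**Figure D3:**
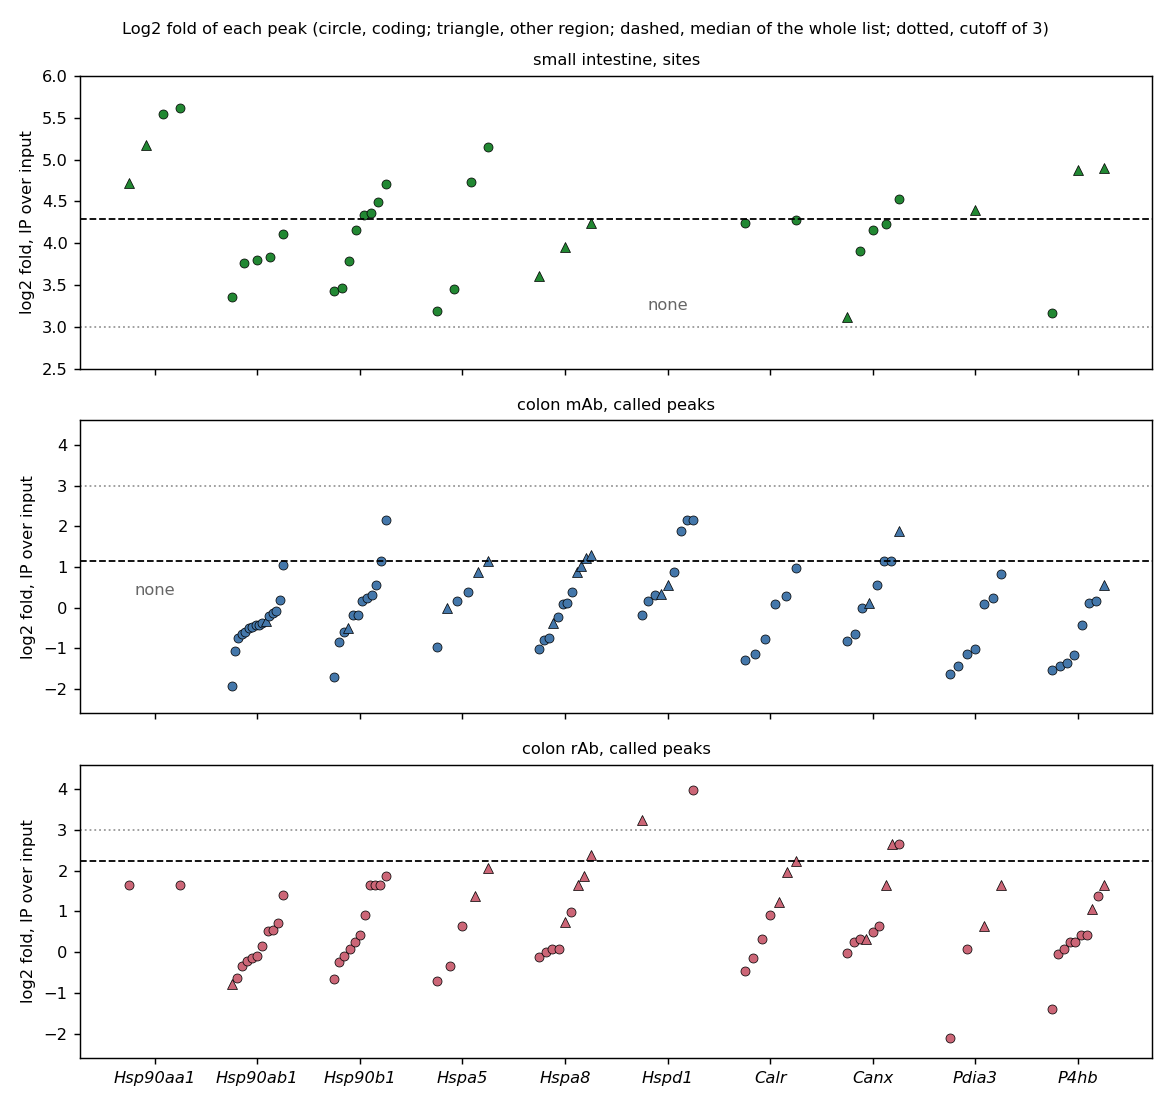
Log2 fold of IP over input for each peak, by gene, in the small intestine (top), colon mAb (middle) and colon rAb (bottom) lists, with circles for coding sequence and triangles for other regions. The dashed line is the median of the whole list and the dotted line the cutoff of 3; most colon points lie under the dashed line, and the only colon points above 3 are the 2 Hspd1 peaks of the rAb list.

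Taken over the 10 genes, the colon peaks were low for their lists. In the mAb list their median log2 fold was -0.02 (quartiles -0.68 and 0.56), against 1.15 over all called peaks, and 43 of 84 (51.2%) were below 0, against 16.1% of the list. In the rAb list the median was 0.46 (quartiles -0.02 and 1.65), against 2.24, and 18 of 70 (25.7%) were below 0, against 7.93%. A log2 fold below 0 means fewer IP reads than input reads after scaling for depth. Depth differed too: traced chaperone peaks had a median of 6 IP reads for mAb and 5 for rAb, against 3 over each whole list. Among peaks with at least 10 IP reads, the median log2 fold was -0.20 for 23 chaperone peaks and 0.83 for all 1546 in the mAb list, and 0.54 for 7 and 1.01 for all 845 in the rAb list. Among small intestine sites, all past the cutoff, the median log2 fold of the chaperone sites was 4.23 and that of all sites 4.29.

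The colon lists were set against each other at the same positions. Of the 84 mAb peaks, 38 (45.2%, exact 95% interval 34.3 to 56.5) overlapped a called rAb peak, against 18.2% of all mAb peaks. Of the 70 rAb peaks, 36 (51.4%, 39.2 to 63.6) overlapped a called mAb peak, against 32.0% of all rAb peaks. The 38 overlapping pairs had a median log2 fold of -0.28 in mAb and 0.29 in rAb, with the higher value in rAb for 32 of them. The median difference, rAb minus mAb, was 0.65, against 0.67 over all 3291 pairs of the lists. Across the chaperone pairs, the log2 folds had a Spearman's rho of 0.80 (Pearson's r, 0.74), as a description of peaks that share genes and libraries. The largest gap in favour of rAb was at Hspd1 exon 12.

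**Figure D4:**
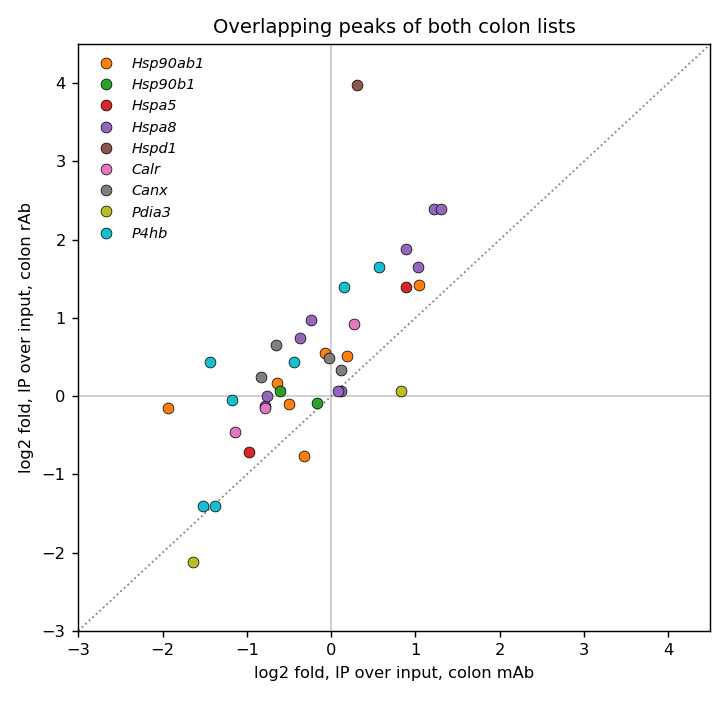
Log2 fold of IP over input in the colon mAb list (horizontal) and the colon rAb list (vertical) for the 38 pairs of overlapping peaks on the chaperone genes, coloured by gene, with the line of equal values dotted. In 32 pairs the point lies above the line, and the Hspd1 point at 0.30 and 3.98 is the farthest from it.

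Next, the small intestine sites were set against the called colon peaks at the same bases. Of the 35 sites, 18 (51.4%, exact 95% interval 34.0 to 68.6) overlapped a called mAb peak, against 35.8% of all small intestine sites, and 15 (42.9%, 26.3 to 60.6) overlapped a called rAb peak, against 19.3%. In all, 21 sites met a peak of at least 1 colon list and 12 met both. The matching shares over all small intestine sites were not computed, so these counts have no background. Over all colon peaks that met a site, the log2 folds ran from -1.71 to 1.30 for 17 mAb peaks (median -0.17) and from -0.72 to 2.07 for 13 rAb peaks (median 0.43), and none was past the cutoff. The log2 folds of the tissues come from different protocols and are given side by side with no test. The highest colon values at a site were at Snord14c for mAb (1.30) and at the start codon site of Hspa5 for rAb (2.07), followed by exon 13 of Hsp90b1 (1.88, from 7 IP reads over 6 input reads).

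**Figure D5:**
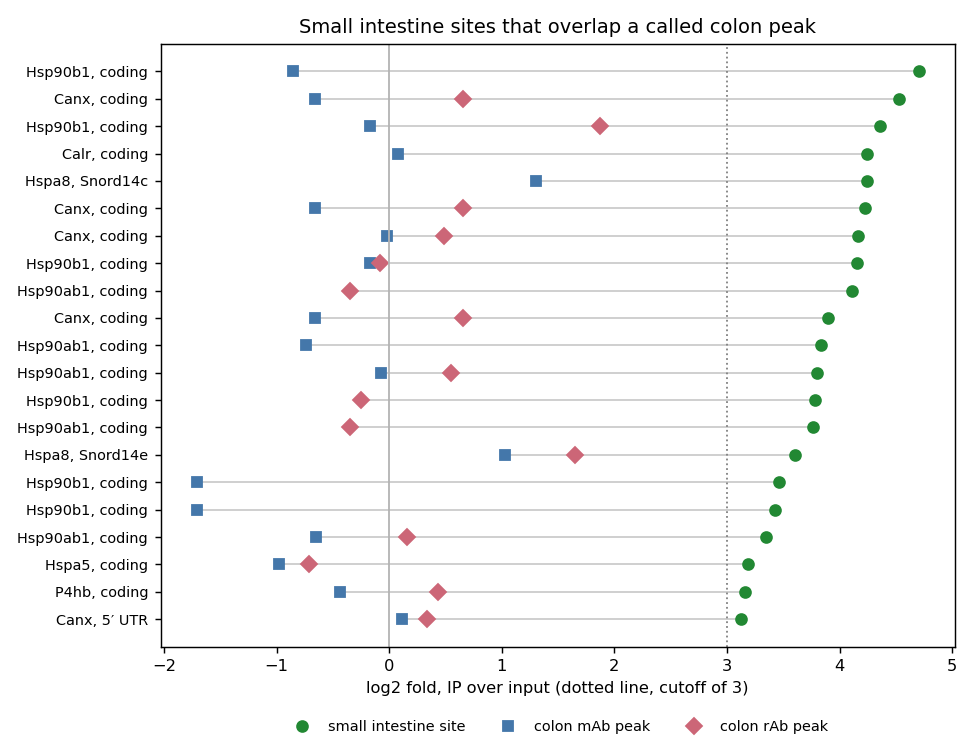
Log2 fold of the 21 small intestine sites (circles) that overlap a called colon peak, with the log2 fold of the mAb peak (squares) and rAb peak (diamonds) that shares the most bases; the dotted line is the cutoff of 3. All colon values lie between -1.71 and 1.88, and the snoRNA sites of Hspa8 have the highest mAb values.

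Genes with a site in the small intestine made up 6.58% of the 5837 protein-coding genes called in a colon list and 25.4% of the 586 with at least 10 called colon peaks. Of the chaperone genes, all 10 were called in a colon list and 9 had a site, and 8 of the 9 with at least 10 called colon peaks had one. Number of called peaks moves with the abundance and length of a transcript, and its part in the number of sites was not tested.

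Sites and called peaks were also counted on the wider chaperone network. For scale, 6.58% of the 5837 protein-coding genes called in a colon list had a small intestine site. Not all genes of the network were called in a colon list. The mAb list touched 5558 annotated genes and the rAb list 3907, and 1.22% and 1.99% of all their called peaks were sites. Of 68 further genes (HSP70 partners, HSP90 co-chaperones, small heat shock proteins, mitochondrial chaperones, the cytosolic chaperonin, ER folding factors and stress regulators), 3 had a site in the small intestine, 39 a called peak in mAb and 38 one in rAb, and none had a site in the colon. The 3 were Dnaja1 and Dnajb1, which stimulate the ATPase of HSP70 proteins, and Atf4, a transcription factor of the integrated stress response. Dnaja1 had a site in a proximal intron, chr4:40722707-40722800 (log2 fold 4.65, −log10 p 19.2). Dnajb1 had a coding site, chr8:83610103-83610227 (3.90 and 11.3), and Atf4 had a 5′ UTR site, chr15:80255528-80255586 (3.47 and 11.9). None of the 21 further ER folding genes had a site, beside all 6 ER genes of the group. Of the 21, 10 had a called peak in mAb and 12 in rAb. For so few genes a count of 0 lies near the share of 6.58%, which covers called genes only. The genes of the group were chosen with earlier results of these data known, so the difference between the 6 and the 21 is a description only.

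Called colon peaks in this network were most numerous on chaperonin subunits, which fold actin and tubulin in the cytosol, and on cofactors. In the mAb list Cct2 had 13 peaks (median log2 fold 0.56), Tcp1 had 8 (-1.61) and Txndc5, a disulfide isomerase, had 7 (0.24). In the rAb list Fkbp4, a co-chaperone of HSP90, had 8 (1.29), Cct3 had 6 (1.95) and Cct2 had 5 (1.24). The medians of the mAb list lay under the 1.15 of all its peaks, and those of the rAb list under 2.24. In the network, 0 of 129 mAb peaks and 1 of 80 rAb peaks had a −log10 p above 3, against 2.79% and 4.91% of all called peaks. The rAb peak is named for that value. It lay on the coding sequence of Hspa1b, a stress-inducible HSP70 of the cytosol with a near-identical neighbour, in the rAb list at chr17:34957531-34957618, with 65 IP reads over 63 input reads (log2 fold 1.70, exact 95% interval 1.18 to 2.22, −log10 p 11.4). The mAb peak at the same place had 56 IP reads over 55 input reads (log2 fold 0.59, −log10 p 1.42).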

How the data were processed

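Per the labels, the authors trimmed reads with cutadapt 1.9.1, aligned them to mm10 with STAR 2.4.0i and used SAMtools 1.4.1; peaks were called with CLIPper. The deposited log2 fold is IP over input, each scaled for depth, and the deposited −log10 p tests the same reads, up to a cap of 400. The authors deposited these log2 and −log10 values with no counts per sample.

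Peaks were assigned to genes and regions of GENCODE M21 by any overlap on the strand (bedtools 2.31.1), with priority to coding sequence, 5′ UTR, 3′ UTR, non-coding exon, intron within 500 bases of an exon and other intron. For the small intestine, the authors' gene matched for 35 of 35 sites and their region for 32. The main transcript was the longest of the principal ones. In the colon lists, each pair of log2 fold and −log10 p was traced to the smallest whole IP and input reads that gave it (p within 1%), which succeeded for 99.2% of 13011 mAb peaks and 99.6% of 8282 rAb peaks with a −log10 p above 0 and below the cap. In simulated data, 98.2% of 1435 traced pairs gave back their true reads. The depth ratio was given there and most simulated peaks had more reads than the colon peaks, so the depth ratio itself was not checked. Where −log10 p was 0 the reads are a lower bound. The input held 1.48 (mAb) and 3.15 (rAb) times the reads of the IP. Exact 95% intervals of a fold treat the input total as known and cover counting error only, since PCR copies cannot be seen. Library totals were not given in the files, so the reading of 3 IP reads over 1 input read could not be checked against them.

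Sites of 20 bases or more were searched in the assembled chromosomes with BLAST+ 2.17.0, and coding sequences were aligned with Biopython 1.88. The genes and lists were chosen with earlier results of these data known. All 10 genes are described. The sites are named, except for some items that are not reported here, and for a gene without a site, its peaks with the highest log2 fold and the most IP reads. Of other chaperone genes, those with a site and the 3 with the most called peaks per colon list are named. Another deposited peak list, with 2 value columns, could not be tied to any sample by its labels and was left out. The alternatives tried were other rules of overlap, cutoff, joining and read minimum.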

Additional observations from a re-analysis of the deposited data

How the results depend on the processing

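Of the alternatives run, 35 of 43 left the value within its range and none reversed one. The 35 include stricter cutoffs on the colon site counts, which were already 0 and could not change. They also count the joining of small intestine intervals under both peaks and sites, which are the same list there. With a log2 fold above 1 in place of 3, the number of chaperone sites in the colon rose from 0 to 1 in the mAb list and to 2 in the rAb list (Hsp90ab1 exon 9 in both and Snord14e in rAb); this cutoff could not be run on the small intestine, whose list starts at 3. With a log2 fold above 4, 21 of the 35 small intestine sites were left. Joining intervals within 10 bases left 28 small intestine sites, and 2 rules chosen after seeing the data left 31 (without sites that match elsewhere in the genome) and 33 (without sites on another annotated gene). With at least 10 IP reads, coding sequence held 65.2% of 23 mAb peaks and 85.7% of 7 rAb peaks. When at least 50% of the peak had to be covered, the share of mAb peaks met by rAb came to 29.8%, and when 50% of both had to be, to 25%; the reverse share then was 30%. No paired analysis was possible because each group had 1 list. Leaving out a replicate of the small intestine could not be run on the merged list. The traced median of 3 IP reads per called colon peak limits every colon log2 fold.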
